A study of Homo sapiens with 6 samples.

Results

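The cytosolic ribosomal protein genes encode the protein components of the small and large subunits of the ribosome, the particle that makes the proteins of the cell. They were taken from the expression table by symbol: names made of RPL or RPS and a number, with A or X after the number in some cases, the P-stalk genes RPLP0, RPLP1 and RPLP2, and RPSA, RPS27A, RPL36AL and RPS27L, without pseudogenes. The rule found 96 of the 63009 rows. They belong to 79 genes, 32 of the small subunit, 44 of the large subunit and 3 of the P-stalk, and all 79 were among the 13993 genes tested. The other 17 rows are further copies of RPS9, RPS18, RPL10, RPL7A, RPS25 and RPL36A under other identifiers, listed at 0 in every library.

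RNA was sequenced from IMR90 cells, a line of human lung fibroblasts, that stably carried a retroviral H-RasV12 fused to the estrogen receptor ligand-binding domain (ERRAS cells). Both groups carried this construct and both were arrested in mitosis with 1 µM DME (dimethylenastron), which inhibits the kinesin Eg5, after which the detached mitotic cells were collected. The 3 libraries of control mitotic cells came from cells left uninduced, and the 3 libraries of Ras-induced mitotic cells came from cells in which Ras had been active for 4 days. The labels give the inducer as 100 nM of tamoxifen, and the methods give 4OHT in another unit. The study describes independent repeats of the experiment, while the labels do not say which libraries came from which, so p-values measure the spread between these libraries. Values are FPKM, the fragments assigned to a gene divided by the length of its transcript and by the mapped fragments of the library, and were made from poly(A) RNA. FPKM is relative to the rest of the library, and in bulk RNA fewer expressing cells and less RNA per cell cannot be told apart.

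Ribosomal protein genes are among the most abundantly transcribed genes of growing cells, and their products are needed in equal numbers for each ribosome, so the messages are usually kept in step with one another. Most of these messages start with a terminal oligopyrimidine (TOP) motif, a C followed by an unbroken run of C and T, through which mTOR and LARP1 control their translation. Some ribosomal proteins not built into a ribosome have roles of their own: RPL5 and RPL11 bind the ubiquitin ligase MDM2. RPS6 is phosphorylated by kinases that act downstream of Ras and mTOR.

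Promoter sequences are shown because the TOP motif is what most of these genes share besides their function. RefSeq promoter windows (GRCh38.p14, from 250 bases before to 50 bases after the annotated start) were matched by symbol for 64 of the 79 genes. A TOP start was counted where the first transcribed base was C and at least 4 more C or T followed it, read on the strand of the gene. A gene counted if any of its windows had one. That was so in 46 of the 64 genes (71.9%), and in 1404 of 27305 genes (5.14%) when every promoter window in the reference was searched in the same way. By window the counts were 46 of 79 (58.2%) and 1429 of 35116 (4.07%). Below are 30 bases around the annotated start of genes described in the text, 5′ to 3′ on the strand of the gene, with the first transcribed base at position 16 and capitals marking the run of C and T that begins there. RPL26, RPL34, RPL35A and RPS28 are shown for having the largest differences among the genes of their kind, RPL10 and RPL28 for having the smallest among large-subunit genes, and the others as pairs of paralogs. RPL34 and RPL10 have more than 1 window, and the one with the longest run is shown.
RPL26 (chr17:8383179-8383208, minus strand): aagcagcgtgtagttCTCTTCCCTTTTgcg
RPL34 (chr4:108620561-108620590, plus strand): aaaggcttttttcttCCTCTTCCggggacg
RPL35A (chr3:197950175-197950204, plus strand): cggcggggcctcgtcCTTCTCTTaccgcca
RPS28 (chr19:8321481-8321510, plus strand): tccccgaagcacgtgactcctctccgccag
RPL10 (chrX:154398362-154398391, plus strand): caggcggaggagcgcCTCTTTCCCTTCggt
RPL28 (chr19:55385917-55385946, plus strand): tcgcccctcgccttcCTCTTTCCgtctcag
RPL36A (chrX:101390996-101391025, plus strand): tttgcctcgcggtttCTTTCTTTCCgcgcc
RPL36AL (chr14:49620612-49620641, minus strand): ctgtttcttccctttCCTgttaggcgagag
RPS27 (chr1:153990747-153990776, plus strand): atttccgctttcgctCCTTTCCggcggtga
RPS27L (chr15:63157463-63157492, minus strand): aagttgatgccgagcgcagatcgcttgcag
RPL22 (chr1:6199581-6199610, minus strand): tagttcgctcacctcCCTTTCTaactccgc
RPL22L1 (chr3:170870181-170870210, minus strand): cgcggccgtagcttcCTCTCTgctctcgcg

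In these windows RPS28, RPS27L and RPL36AL did not meet the count for a TOP start. RPS28 and RPS27L have no C at position 16, although in RPS28 a run of C and T begins at the next base. In RPL36AL the run ends after 3 bases. The count of TOP starts thus depends on the annotated start. The core motif of the ETS factors, CCGGAAG, was found on either strand of the whole window in 23 of the 64 genes (35.9%) and in 12.2% of all genes with a window. TATAAA was found in 5 of the 64 (7.81%, against 14.0% of all genes), the E-box CACGTG bound by MYC in 4 (6.25%, against 8.77%) and AAGATGGC, the core of the YY1 motif, in 6 (9.38%, against 3.52%). A match is a run of letters, not a measured site.

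The first comparison asked whether messages for ribosomal proteins differed between Ras-induced and control mitotic cells. In the deposited values the mean of each of the 79 genes was higher after Ras induction, by a median of 0.22 on the log2(FPKM + 1) scale (1.16-fold). The differences lay between 0.032 for RPL28 and 0.38 for RPS28, with the middle of the distribution, from the lower to the upper quartile, between 0.17 and 0.25. None of the 79 genes passed the test (limma on log2(FPKM + 1), altered at a Benjamini-Hochberg adjusted p of 0.05 or less over 13993 genes), whereas 16.7% of all tested genes did, 11.0% higher and 5.67% lower. This balance moved with the scaling. It turned to 7.46% higher and 7.93% lower after quantile normalization, 6.58% and 7.87% after upper-quartile scaling and 6.57% and 7.82% after median centring. After scaling to a common sum it did not turn, with 7.32% higher and 6.70% lower. In the deposited values 23 of the 79 genes had an unadjusted p under 0.05, against a background of 33.6% of all tested genes. The adjusted p-values ran from 0.0619 to 0.852.

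A mean above that of the controls was found for 62.7% of all tested genes, whose median difference was 0.10, and 77 of the 79 ribosomal protein genes lay above that median. In 32 of the 79 genes all 3 Ras-induced libraries exceeded all 3 control libraries (27.1% of all tested genes did so), in 47 the groups overlapped, and in 0 all 3 lay under the controls (12.8% of all tested genes). The median standard error of a difference was 0.10, and the upper 95% bound was 0.68 (1.61-fold) or less for every gene of the 79. The call of 0 genes changed under quantile normalization (11 higher, against 7.46% of all tested genes), with the replicate number as a block (1 higher, against 10.5%) and with relative depth as a covariate, an alternative added after the order of the libraries had been seen (27 higher, against 10.8%). Upper-quartile scaling and median centring gave medians of 0.11 and 0.12, with 75 and 77 of the 79 genes above 0, where 50.7% and 50.4% of all tested genes were. In both fits 0 of the 79 had an unadjusted p under 0.05, against 30.5% and 30.7% of all tested genes. Leaving out 1 library moved that last count between 2 without the third Ras-induced library (26.5% of all tested genes) and 53 without the first (29.5%).

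**Figure D1:**
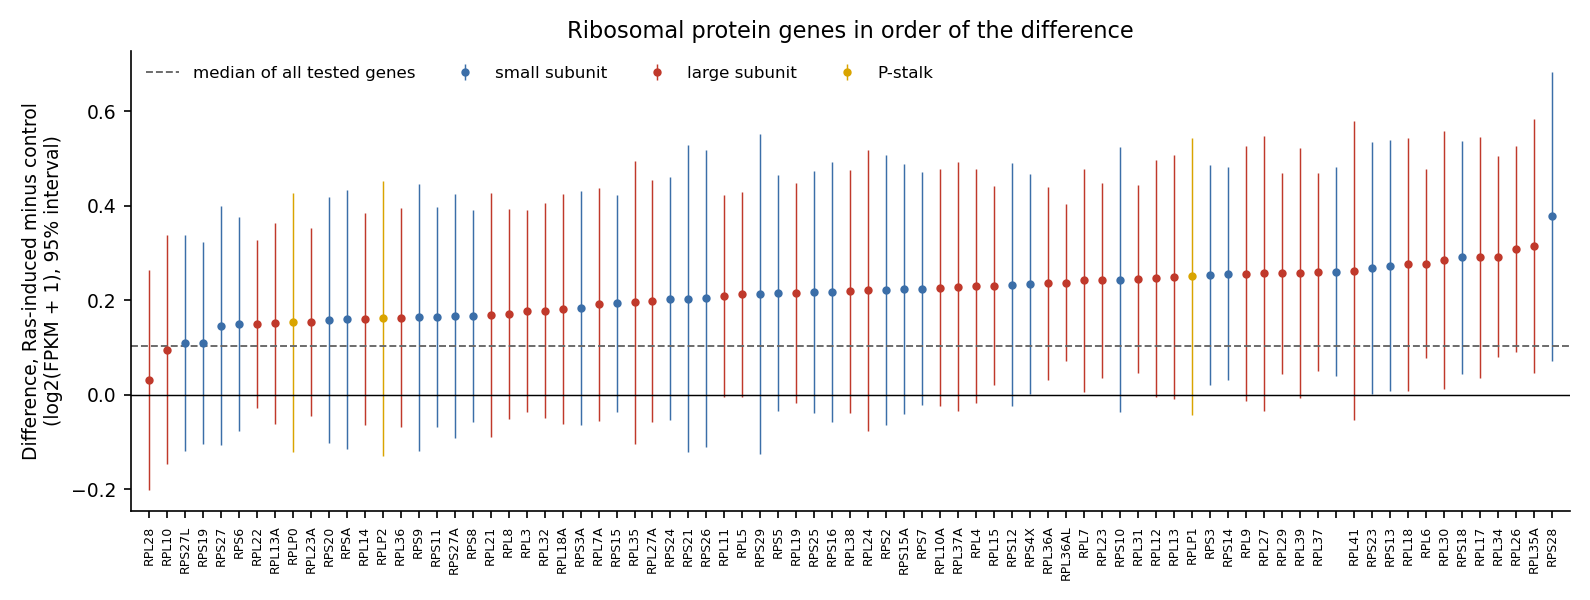
Difference of each of the 79 ribosomal protein genes between Ras-induced and control mitotic cells on the log2(FPKM + 1) scale, in rising order, 1 of them without a name, with the 95% interval from limma, small-subunit genes in blue, large-subunit genes in red, P-stalk genes in yellow and the median of all tested genes (0.10) as a dashed line. All points lie above 0, from RPL28 at the left to RPS28 at the right, and the intervals of most genes cross 0.

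Among the small-subunit genes, RPS28 had the largest difference of all 79. RPS28 (ENSG00000233927, chromosome 19, 8386042 to 8388224 of GRCh37) measured 337, 359.8 and 282 FPKM in control mitotic cells and 405, 483 and 384 FPKM in Ras-induced mitotic cells. The lowest Ras-induced library lay above the highest control library, but the controls spanned a wide range. The difference was 0.38 (95% interval 0.071 to 0.68, adjusted p = 0.0915 from limma). RPS28 passed the test after quantile normalization and with the replicate number as a block (adjusted p = 0.0387 from limma with the block). Its adjusted p reached 0.203 over the alternatives. Its replicate SD of 0.177 was among the 5 largest of the 79 genes, with RPS29 (0.199), RPS21 (0.190), RPS26 (0.184) and RPL41 (0.181).

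RPS6, the S6 kinase substrate of the small subunit, measured 719, 732 and 661 FPKM in control mitotic cells and 704, 847 and 797 FPKM in Ras-induced mitotic cells. The first Ras-induced library was within the range of the controls and the second was the highest of all 6. The difference was 0.15 (adjusted p = 0.317 from limma). RPS3, which lines the entry of the mRNA channel and also acts in DNA repair, measured 932, 979 and 893 FPKM in control mitotic cells and 994, 1213 and 1145 FPKM in Ras-induced mitotic cells, with a difference of 0.25 (adjusted p = 0.123 from limma). In RPS3 the groups did not overlap.

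RPSA, also known as the laminin receptor, measured 789.8, 842 and 721 FPKM against 768, 984 and 884 FPKM, control libraries first. RPS27A, which is made as a fusion with ubiquitin, measured 565, 581 and 541 FPKM against 554, 719.9 and 629 FPKM. In both genes the groups overlapped, and their differences of 0.16 and 0.17 had adjusted p-values of 0.38 and 0.331 from limma. FAU, which encodes a ribosomal protein fused to a ubiquitin-like domain, lies outside the symbol rule and had a difference of 0.20 (adjusted p = 0.381 from limma). Over the 32 small-subunit genes the median difference was 0.21, and the groups were separate, with higher Ras-induced libraries, in 9 (28.1%, against 27.1% of all tested genes).

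The large-subunit genes held the lowest p-values. RPL36AL (ENSG00000165502, chromosome 14, 50085248 to 50087344 of GRCh37), a second gene for the protein RPL36A, measured 191, 197 and 196 FPKM in control mitotic cells and 218, 241 and 231 FPKM in Ras-induced mitotic cells. Its control libraries lay close together, and all Ras-induced libraries were above them. The difference was 0.24 (SE 0.069, adjusted p = 0.0619 from limma, the lowest of the 79 genes).

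RPL26 (ENSG00000161970, chromosome 17, 8280834 to 8286531 of GRCh37), a protein of the large subunit, measured 664, 679.8 and 611 FPKM in control mitotic cells and 734, 866 and 824 FPKM in Ras-induced mitotic cells. RPL34 measured 485, 496 and 443 FPKM in control mitotic cells and 538, 628 and 579.9 FPKM in Ras-induced mitotic cells. RPL6 measured 736, 765 and 721 FPKM in control mitotic cells and 823, 957 and 919 FPKM in Ras-induced mitotic cells. In these genes the lowest Ras-induced library was the first and the lowest control library the third. The differences were 0.31, 0.29 and 0.28, with adjusted p-values of 0.064, 0.069 and 0.0671 from limma. RPL37 followed with 0.26 (adjusted p = 0.0897 from limma). RPL26 and RPL34 passed the test after quantile normalization and with relative depth as a covariate, and RPL6 with that covariate alone. Over the alternatives the adjusted p from limma ran from 0.0178 to 0.204 for RPL26, 0.0207 to 0.202 for RPL34 and 0.0266 to 0.232 for RPL6.

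RPL5 and RPL11, which form a particle with 5S ribosomal RNA and bind MDM2, had separate groups with small differences. RPL5 measured 621, 646 and 603 FPKM in control mitotic cells and 651, 785 and 737 FPKM in Ras-induced mitotic cells, and RPL11 measured 720.2, 724 and 647 FPKM in control mitotic cells and 751, 869 and 799 FPKM in Ras-induced mitotic cells. The differences were 0.21 (adjusted p = 0.155 from limma) and 0.21 (adjusted p = 0.156). Over the 44 large-subunit genes the median difference was 0.23, and the groups were separate in the same direction in 23 (52.3%, against 27.1% of all tested genes).

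At the other end, RPL28 measured 589, 571 and 518 FPKM in control mitotic cells and 512, 598 and 608 FPKM in Ras-induced mitotic cells, and the groups overlapped nearly in full. RPL10, which joins late in the assembly of the large subunit, measured 1204, 1220.3 and 1081 FPKM in control mitotic cells and 1132, 1381 and 1236 FPKM in Ras-induced mitotic cells. The differences were 0.032 (95% interval -0.20 to 0.26, adjusted p = 0.852 from limma, with values from -0.079 to -0.0012 in the 8 alternatives that put it under 0) and 0.095 (95% interval -0.15 to 0.34, adjusted p = 0.549). RPL28 and RPL35A were chosen for mention after their values were seen. RPL35A measured 513, 538 and 452 FPKM in control mitotic cells and 561, 702 and 610.4 FPKM in Ras-induced mitotic cells, a difference of 0.31 (adjusted p = 0.104 from limma), second to RPS28.

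The P-stalk recruits translation factors to the large subunit. RPLP0, its base, measured 1014, 1062 and 888 FPKM in control mitotic cells and 977, 1226 and 1099 FPKM in Ras-induced mitotic cells. RPLP1 had a difference of 0.25 (adjusted p = 0.205 from limma), RPLP2 of 0.16 (adjusted p = 0.404) and RPLP0 of 0.15 (adjusted p = 0.399). The groups overlapped in all 3 of these genes.

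Levels differed much more between genes than between groups. Mean FPKM over the 6 libraries, a level per transcript length, ran from 149 for RPS27L to 1209 for RPL10 and 1209 for RPL41, with a median of 670.2. After RPL10 and RPL41, which did not differ beyond their spread, came RPS2 (1149 FPKM), RPS27 (1117) and RPL4 (1116). The lowest after RPS27L were RPL36AL (212 FPKM), RPS26 (261), RPL22 (287) and RPS28 (375). Both RPS27L and RPL36AL are second genes for the same or nearly the same protein as another gene of the 79.

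Ribosomal protein transcripts are short, so the differences were set against the replicate spread. The median within-group SD of log2(FPKM + 1) was 0.129 over the 79 genes, from 0.0520 to 0.199. It was 0.129 over the 1044 other tested genes whose mean reached 100 FPKM and 0.168 over all tested genes. At this spread the genes of at least 100 FPKM outside the list had a median difference of 0.09, and 23.7% of them were altered. By its median, the spread of the ribosomal protein genes equalled that of other abundant genes, while their differences stayed close to one another, with an SD of 0.055 across the 79 genes.

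**Figure D2:**
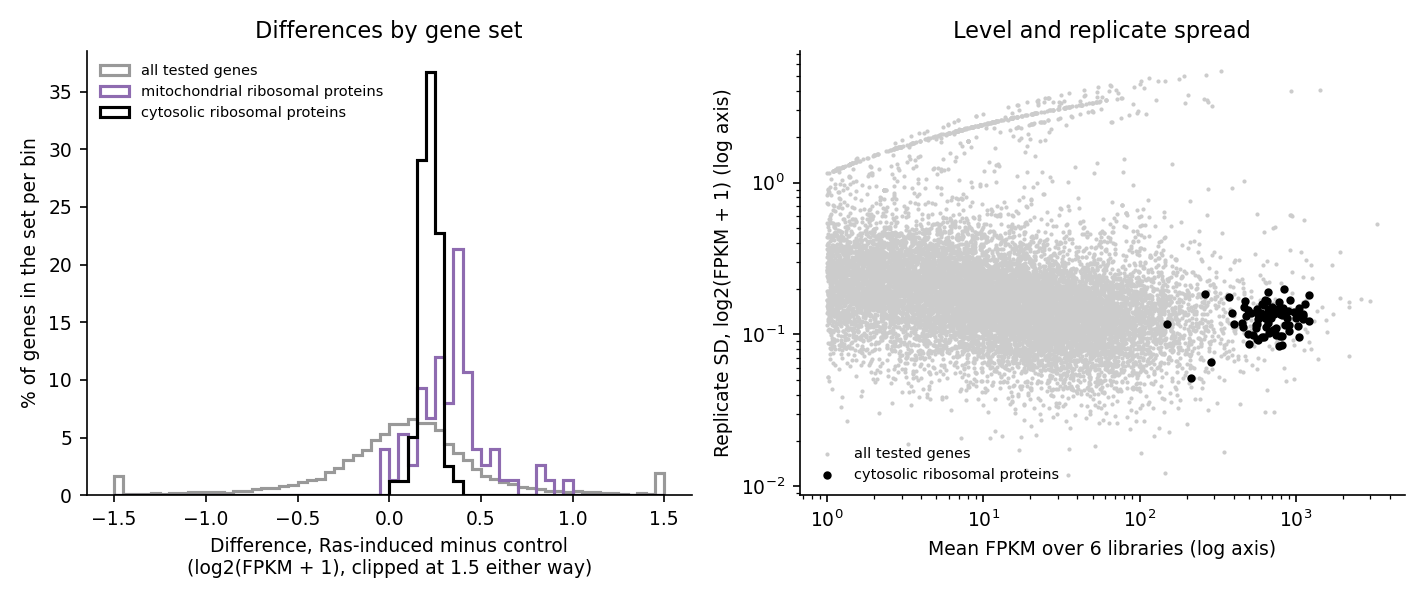
Left, distribution of the difference between Ras-induced and control mitotic cells on the log2(FPKM + 1) scale, in % of each gene set per bin, for the 79 cytosolic ribosomal protein genes, the mitochondrial ribosomal protein genes and all tested genes, with values beyond 1.5 either way drawn at 1.5. Right, mean FPKM against the replicate SD on log axes for all tested genes (grey) and the 79 cytosolic genes (black), which form a narrow peak at the left panel's median of 0.22 and lie inside the cloud of other abundant genes on the right.

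The libraries stood in the same order in most ribosomal protein genes, with RPS27L and RPL28 among the exceptions. Among the controls, the second library was the highest in 73 of the 79 genes (92.4%, against 32.9% of all tested genes) and the third the lowest in 72 (91.1%, against 46.2%). Among the Ras-induced libraries, the second was the highest in 75 (94.9%, against 35.2%) and the first the lowest in 77 (97.5%, against 30.3%). The median deviation of the 79 genes from their own mean was -0.088, -0.028 and -0.214 in the control libraries and -0.049, 0.25 and 0.118 in the Ras-induced libraries. The first Ras-induced library thus lay between the first and the second control, and the second and the third lay above all controls. The other genes of at least 100 FPKM had medians of -0.016, -0.014 and -0.094 in the controls and -0.019, 0.126 and 0.031 after induction.

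When the median of the 79 genes was subtracted from each library, the median within-group SD fell from 0.129 to 0.0409, 3.16 times smaller. The same step on their own medians changed it 1.41 times for the mitochondrial ribosomal protein genes (0.124 to 0.0876), 1.14 times for the other genes of at least 100 FPKM (0.129 to 0.114), and from 0.168 to 0.166 for all tested genes. Most of the replicate spread of a ribosomal protein gene was thus shared with the other ribosomal protein genes of the same library. Genes of one library share its depth and scaling and are not replicates.

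**Figure D3:**
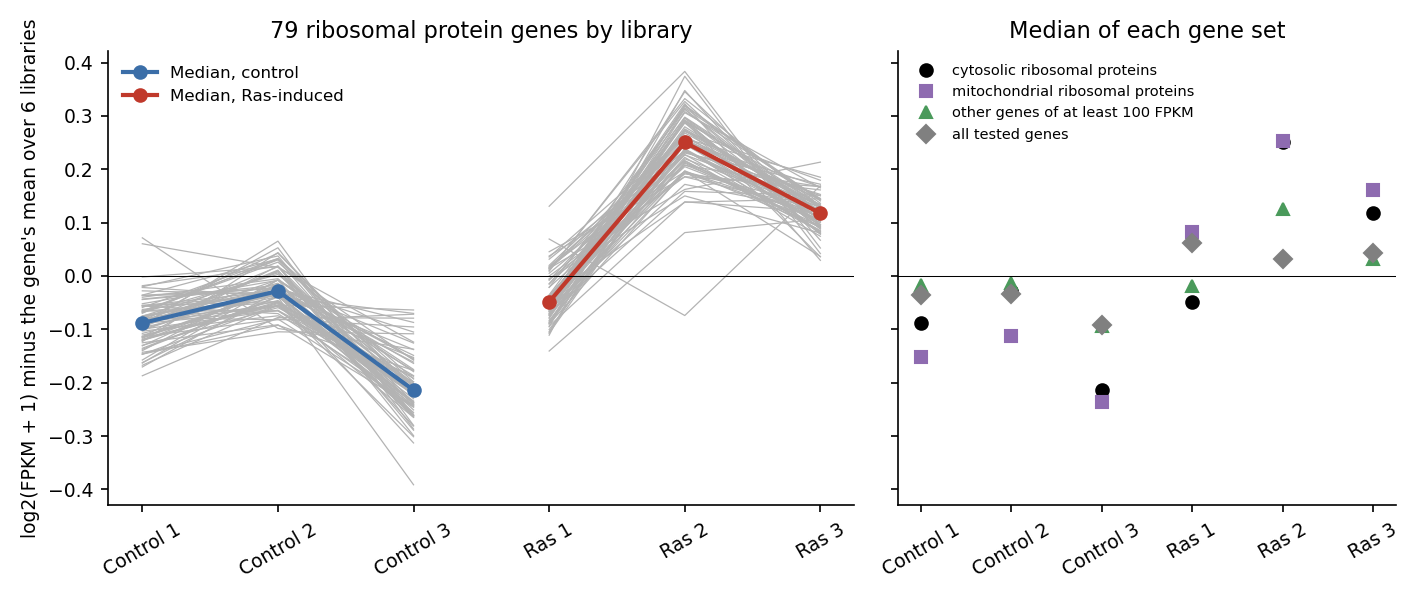
Left, log2(FPKM + 1) of each of the 79 ribosomal protein genes minus its mean over 6 libraries (grey lines within a group, which join libraries for legibility and imply no order), with the median in colour. Right, the median of 4 gene sets in each library. The grey lines run in parallel, lowest in the third control (median -0.214) and highest in the second Ras-induced library (median 0.25).

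The 79 genes carried 9.04, 9.38 and 8.57% of the summed FPKM in the control libraries and 9.23, 10.5 and 10.0% in the Ras-induced libraries. The means were 8.99 ± 0.408% (SD, n = 3) and 9.91 ± 0.640% (SD, n = 3), and the groups overlapped, since the first Ras-induced library lay under the second control. Absolute depth is not given in the sources used here, and the alignment statistics of the study were not used here. Relative depth, estimated from the steps between low FPKM values, was 1.00, 0.951 and 1.17 in the controls and 1.13, 0.847 and 0.972 in the Ras-induced libraries. Within each group the order of the share was the reverse of the order of depth, and the part of depth in the differences was not tested beyond the covariate fit. With log2 relative depth as a covariate in limma, 27 of the 79 passed the test, each with a higher level (10.8% of all tested genes were higher in that fit), and the median difference was 0.16. That fit leaves 3 residual degrees of freedom per gene.

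**Figure D4:**
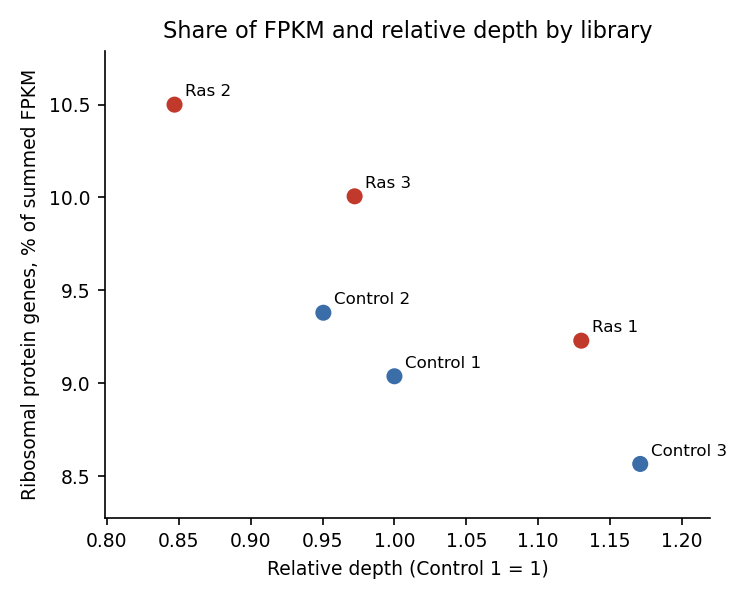
Share of summed FPKM carried by the 79 ribosomal protein genes (y axis, in %, not starting at 0) against relative depth (x axis, first control = 1) for the 6 libraries, control in blue and Ras-induced in red. The second Ras-induced library has the lowest depth (0.847) and the highest share (10.5%), and the third control has the highest depth (1.17) and the lowest share (8.57%).

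Setting each gene against the median of the 79 in its own library asked which genes departed from the group. In this scale, added after the data had been seen, 0 of the 79 genes were altered (limma), against 9.33% of all tested genes, and 2 had an unadjusted p under 0.05, against 25.3%. Of the 79 differences, 74 lay within 0.1 of the median of the group. Counted from its own mean over the 6 libraries, the relative level of RPL28 was 0.147, 0.0425 and 0.0882 in the controls and -0.0940, -0.171 and -0.0126 in the Ras-induced libraries, a relative difference of -0.18 (adjusted p = 0.126 from limma). RPL10 had a relative difference of -0.12 (adjusted p = 0.125 from limma), with all Ras-induced libraries under all controls. The groups were separate in 11 genes with a lower relative level (23.1% of all tested genes were separate and lower on this scale), among them RPS6, RPSA, RPLP0, RPS19 and RPS27, and in 9 with a higher one (8.44% of all tested genes), among them RPL26, RPL34, RPL35A, RPS13 and RPS18. RPS28 was 0.161 above the group (adjusted p = 0.310 from limma), with overlapping libraries.

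The differences were also described by TOP start, without a test, for the 64 genes with a promoter window. The 46 with a TOP start had a median difference of 0.22 and the 18 without had 0.23. Among other tested genes, the 622 with a TOP start had a median of 0.10 and the 7988 without had 0.11. In the sequences printed above, RPL26 and RPL28, near opposite ends of the order of differences, both carry a TOP start. RPS28, with the largest difference, has no C at its annotated start, and a run of C and T begins at the next base. The split into genes with and without a TOP start thus rests on the annotated starts.

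Paralogs, here genes related to another ribosomal protein gene, were compared with that parent gene in each library. RPS27L measured 156, 139 and 135 FPKM in control mitotic cells and 156, 141 and 167 FPKM in Ras-induced mitotic cells, a difference of 0.11 (adjusted p = 0.46 from limma). Relative to RPS27 it stood at 13.6 ± 1.25% (SD, n = 3) in control and 13.3 ± 2.07% (SD, n = 3) in Ras-induced mitotic cells. RPL36AL stood at 37.4 ± 2.34% (SD, n = 3) in control and 37.4 ± 1.14% (SD, n = 3) in Ras-induced mitotic cells, relative to RPL36A.

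RPL22L1, the paralog of the RNA-binding large-subunit protein RPL22, lies outside the symbol rule. It measured 153, 189.6 and 138 FPKM in control mitotic cells and 218, 268 and 247 FPKM in Ras-induced mitotic cells, and all Ras-induced libraries were above all controls. The difference was 0.61 (adjusted p = 0.0301 from limma). Its parent RPL22 measured 272, 282 and 263 FPKM in control mitotic cells and 286, 318 and 303 FPKM in Ras-induced mitotic cells, a difference of 0.15 (adjusted p = 0.209 from limma). As a share of the FPKM of RPL22, RPL22L1 stood at 56.2, 67.1 and 52.4% in control and 76.3, 84.1 and 81.3% in Ras-induced mitotic cells. The means were 58.6 ± 7.67% (SD, n = 3) in control and 80.6 ± 3.95% (SD, n = 3) in Ras-induced mitotic cells. For this ratio the two-sided exact permutation test gave p = 0.1, the smallest that 3 libraries against 3 allow (0.3 after Benjamini-Hochberg adjustment over 6 pairs).

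RPL7L1, a relative of RPL7 that acts in ribosome assembly, rose by 0.32 (adjusted p = 0.0247 from limma). RPL26L1 had a difference of 0.082 (adjusted p = 0.698 from limma), whose sign turned in some alternatives. RPL39L had one of -0.088 (adjusted p = 0.621 from limma). RPL3L and RPL10L had means under 1 FPKM and were not tested. RPL39L stood at 9.71 ± 0.762% of RPL39 in control and at 7.63 ± 0.520% in Ras-induced mitotic cells (SD, n = 3 in each group, exact permutation p = 0.1, 0.3 adjusted over the 6 pairs), with separate groups. The calls of RPL22L1 and RPL7L1 were lost in some alternatives, with adjusted p-values of up to 0.106 and 0.0793. Centred on the ribosomal protein genes, which subtracts their shared difference, RPL22L1 kept its call (adjusted p = 0.0397 from limma) and RPL7L1 did not (0.552). Paralogs can share reads with their parent, so their levels are uncertain.

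The table also lists processed copies of these genes. It holds 774 rows of ribosomal protein pseudogenes for 74 of the parent genes, of which 364 were listed at 0 in every library and 93 had a mean of at least 1 FPKM. Their summed FPKM was between 4.88 and 5.21% of that of the 79 genes in every library. The largest shares were those of RPS26, whose pseudogenes came to 44% of the parent, and of RPL41 (40.6%), RPL15 (27.2%), RPL9 (25.2%) and RPL39 (24.4%). How reads were divided between a gene and its copies is not given in the sources used here, so levels of these parents are uncertain. Adding the pseudogene rows to the parents moved a difference by 0.052 at most, for RPL35A, and left the median at 0.22. The move of RPL35A rests on 1 value, that of RPL35AP4, which was at 58.3 FPKM in the first control and listed at 0 in the other libraries, and the next largest move was 0.018.

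The genes around the ribosomal proteins were described from lists. Of 21 translation factors and other genes with known TOP messages, 2 were higher and 1 was lower (14.3% altered, against 16.7% of all tested genes), with a median difference of 0.17. EIF3E, a subunit of initiation factor eIF3, rose by 0.36 (adjusted p = 0.0354 from limma), and NACA, which binds nascent chains at the ribosome, rose by 0.32 (adjusted p = 0.0483). IPO5, an importin that carries ribosomal proteins into the nucleus, fell by 0.61 (adjusted p = 0.00405). The calls of EIF3E and NACA were lost in some alternatives, with adjusted p-values of up to 0.115 and 0.162, and of 0.379 and 0.283 when centred on the ribosomal protein genes. The call of IPO5 held in all of these fits. GNB2L1, which encodes the ribosomal scaffold RACK1, and the nucleolar chaperone NPM1 had differences of 0.22 and 0.20, with adjusted p-values of 0.129 and 0.28.

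Mitochondrial ribosomal proteins, which build the separate ribosome of the mitochondrion, had a larger median difference. Of 75 tested genes 34 were higher and 0 lower by limma (45.3% altered, against 16.7% of all tested genes), with a median difference of 0.35. MRPL36 measured 59.4, 51.6 and 47.8 FPKM in control mitotic cells and 109, 103 and 98.6 FPKM in Ras-induced mitotic cells and rose by 0.96 (adjusted p = 0.00325 from limma). MRPS6 rose by 0.86 (adjusted p = 0.00328) and MRPL17 by 0.84 (adjusted p = 0.00552). By library the mitochondrial set had medians of -0.153, -0.113 and -0.235 in the controls and 0.082, 0.252 and 0.162 after induction, so that its groups were separate where those of the cytosolic set overlapped. The difference between the sets was not tested, and the count of 34 moved with the processing. It was 12 after upper-quartile scaling (16% of the 75) and 11 after median centring (14.7%), all of them higher. Of all tested genes, 14.5% and 14.4% were altered in either direction in these fits, and 6.58% and 6.57% were higher. The count was 16 after quantile normalization, all higher (21.3%, against 15.4% altered and 7.46% higher). Without the first, the second and the third control it was 7, 9 and 20 (6.99%, 6.26% and 13.4% of all tested genes), and without the first, the second and the third Ras-induced library 12, 8 and 5 (7.45%, 10.3% and 6.15%).

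Of 14 regulators of ribosomal protein synthesis and of TOP messages, 1 was higher and 0 lower by limma (7.14% altered, against 16.7% of all tested genes). RPS6KA3, the kinase RSK2 that acts downstream of ERK, measured 23.8, 19.2 and 19.3 FPKM in control mitotic cells and 57.4, 39.9 and 43.3 FPKM in Ras-induced mitotic cells and rose by 1.13 (adjusted p = 0.00757 from limma). MYC, a transcription factor that acts on ribosomal protein genes, had a difference of -0.52 (adjusted p = 0.078), and it passed the test, as lower, in the limma fits after quantile normalization (adjusted p = 0.0486) and with a block for the replicate number (0.0492). Of 8 genes around MDM2, 1 was higher (12.5%, against 11.0% of all tested genes). It was CDKN1A, the CDK inhibitor p21, with 1.56 (adjusted p = 0.0496 from limma, between 0.00984 and 0.162 over the alternatives, and 0.139 when centred on the ribosomal protein genes), while MDM2 had 0.11 (adjusted p = 0.56). Of 12 chaperones and importers of ribosomal proteins, 3 were higher and 0 lower (25% altered, against 16.7% of all tested genes): BCCIP (0.47, adjusted p = 0.0105 from limma), RPF2 (0.38, 0.0496), which helps to place the RPL5 and RPL11 particle in the large subunit, and AAMP (0.37, 0.0151). The adjusted p of RPF2 reached 0.142 over the alternatives and that of AAMP 0.0542. None of the 3 passed when centred on the ribosomal protein genes (adjusted p = 0.14, 0.43 and 0.418 for BCCIP, RPF2 and AAMP).

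HRAS, read from the endogenous gene or the construct, measured 1174, 1176 and 1140.3 FPKM in control mitotic cells and 1439, 1847 and 1473 FPKM in Ras-induced mitotic cells, a difference of 0.44 (adjusted p = 0.0431 by limma, 0.0526 when the replicate number was a block and up to 0.166 over the alternatives, and 0.0846 when centred on the ribosomal protein genes). All 6 fibroblast markers were above 1 FPKM, with sums of 4642 to 5243 FPKM in the controls and 3010 to 4239 after induction. Their median difference was -1.22, and 2 of the 6 were altered by limma, both lower (33.3%, against 5.67% of all tested genes). All 6 mitotic markers were above 1 FPKM, with sums of 1570.4 to 1634 FPKM in the controls and 1289 to 1432 after induction. Their median difference was -0.23, and 3 of the 6 were altered by limma, all lower (50%, against 5.67% of all tested genes). Both counts of altered markers moved with the processing. Of other cell types, 2 of 4 epithelial markers, 1 of 4 leukocyte markers and 0 of 4 endothelial markers reached a mean of 1 FPKM, and EPCAM, CDH1, PTPRC and PECAM1 did not. The fibroblast and mitotic sums moved with the comparison, and their part in the differences of the ribosomal protein genes was not tested.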

How the data were processed

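Poly(A) RNA of 6 libraries of mitotic ERRAS cells was analysed, 3 uninduced and 3 induced. The FPKM values were deposited by the authors, who ran Cufflinks on reads that Tophat2 had aligned to hg19 with Ensembl splice junctions. The submitters' processing notes also list Trim Galore 0.3.0. The columns name a group and a number, so each library counted as a replicate of its group. Of the table, 18 unnamed columns were not used and 120 rows with more than 6 values were skipped, 1 of them a further RPS18 row. The deposited cuffdiff comparison holds the authors' fold changes, p-values and q-values per gene and was not used.

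The test was that of limma 3.58.1 (R 4.3.3), two-sided, moderated by eBayes along a mean-variance trend and run on log2(FPKM + 1) of the 13993 genes whose mean reached 1 FPKM. P-values were adjusted over these genes by Benjamini-Hochberg, with a threshold of 0.05. Differences on this scale understate changes of low genes. FPKM are not counts, so no count test was run. Alignment statistics were not used here, so depth is given only relative to the first control, as the ratio of 1-fragment steps in low values, and 3 libraries against 3 cannot give an exact p under 0.1. Python 3.11.15 with pandas 2.3.3, numpy 2.4.6 and matplotlib 3.10.9 made tables and figures. Gene coordinates are from GENCODE lifted to GRCh37, the build of hg19, and promoter sequences from RefSeq on GRCh38.p14.

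The ribosomal protein genes and the lists of other genes were chosen with earlier results of these data known. Genes named were the 5 members of lowest p, the 5 of highest and of lowest level, the 5 of largest and of smallest replicate SD, a preset list (RPS27, RPS27L, RPL36A, RPL36AL, RPS27A, RPSA, the P-stalk genes, RPL5, RPL11, RPS6, RPL22 and RPS3), up to 3 altered genes per direction of each other list, and HRAS. Others were chosen after their values were seen, and some genes are counted but not reported by name here. Alternatives were a pseudocount of 0.1, no filter or a minimum mean of 5 FPKM, quantile, upper-quartile, sum and median scaling, limma without trend, the replicate number as a block, each library left out, and, added after seeing the data, relative depth as a covariate and centring on the ribosomal protein genes. Ranges over alternatives leave out this centring, whose values are given apart.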

Additional observations from a re-analysis of the deposited data

How the results depend on the processing

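The number of altered ribosomal protein genes, 0 in the reported values, became 11 after quantile normalization, 1 with the replicate block and 27 with relative depth as a covariate, all of them higher (7.46%, 10.5% and 10.8% of all tested genes were higher in these fits), and stayed at 0 in the other alternatives. The count at an unadjusted p under 0.05 ran from 0 (upper-quartile scaling and median centring, with 30.5% and 30.7% of all tested genes) to 53 without the first Ras-induced library (67.1%, against 29.5%) and 56 with relative depth as a covariate (70.9%, against 34.4%). The median difference was 0.13 after quantile normalization and 0.14 after scaling to a common sum, and ran from 0.15 (without the second Ras-induced library) to 0.30 (without the first) when a library was left out. Between 75 and 79 of the 79 genes stayed above 0 in the fits other than that centred on the ribosomal protein genes themselves. Signs turned for RPL28 (in 8 alternatives, from -0.079 after upper-quartile scaling to -0.0012 without the second Ras-induced library), RPS19 (-0.00054 after upper-quartile scaling), RPL10 (-0.016 after upper-quartile scaling, -0.0041 after median centring), RPS27L (-0.00034 after upper-quartile scaling) and RPL26L1 (-0.0048 after quantile normalization, -0.027 after upper-quartile scaling, -0.017 after median centring and -0.059 without the third control library, with 0.18 without the first control as the highest value on leaving out a library). The cause was not tested.

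For the other lists, altered mitochondrial ribosomal protein genes (34) became 16 after quantile normalization, 12 after upper-quartile scaling and 11 after median centring. Of all tested genes, 15.4%, 14.5% and 14.4% were altered in these fits, and 7.46%, 6.58% and 6.57% were higher. The count was 17 without a filter (5.17% of all tested genes altered) and 20 without trend (14.4%). It ranged from 5 to 20 when a library was left out (6.15% to 13.4%), and all genes counted were higher. Translation factors and other TOP genes (3) became 1 after median centring, without a filter and without trend and 6 with relative depth as a covariate, and ranged from 1 to 2 when a library was left out, with 1 in all fits but that without the first Ras-induced library. Paralogs (2) became 1 after upper-quartile, sum and median scaling (14.5%, 14.0% and 14.4%) and without a filter (5.17%). They ranged from 0 to 1 when a library was left out (1 without the second or the third control). Regulators (1) became 2 after quantile normalization (15.4%) and with the replicate block (16.5%), in both by the addition of MYC. The genes around MDM2 (1) became 0 after quantile, upper-quartile, sum and median scaling (15.4%, 14.5%, 14.0% and 14.4%), without a filter (5.17%) and without trend (14.4%). They ranged from 0 to 1 when a library was left out (1 without the third control or the second Ras-induced library). Chaperones and importers (3) became 1 after median centring (14.4%). They ranged from 1 to 3 when a library was left out, with 1 without the second control or the third Ras-induced library. Centring on the ribosomal protein genes, which subtracts their shared difference, put 42 of the 79 above 0 (35.2% of all tested genes). This left 5 mitochondrial ribosomal protein genes higher (6.67%, against 2.36%), and 0 TOP genes higher and 3 lower (against 6.97%). Altered were 1 paralog, 1 regulator, 0 genes around MDM2 and 0 chaperones and importers (against 9.33%).

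The column numbers 1 to 3 are shared by both groups. Across genes, the deviations from the group mean of libraries with the same number correlated at -0.0027 to 0.048 (mean 0.030 over 3 pairs, against -0.015 for different numbers), so the numbers were not taken to pair the libraries. With the replicate block 1 ribosomal protein gene was altered, RPS28 (adjusted p = 0.0387 from limma), and 25 had an unadjusted p under 0.05 (31.6%, against 35.8% of all tested genes). Of the 224 values of the 14 named genes that were altered, over 16 alternatives, 151 kept the call and 73 lost it. Of the 42 named genes not altered, 20 values gained a call, 645 did not and 7 turned sign without one. Depth given only between libraries and 3 libraries per group limit what differences of the size seen here could show.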

Other observations

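The 37 rows of mitochondrially encoded genes were listed at 0 in all 6 libraries, so the share of FPKM carried by the ribosomal protein genes was the same with and without them, and no check of RNA quality could be made from these rows.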
